A study of Mus musculus with 6 samples.

Results

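Activins, inhibins and TGF-betas are secreted dimers of the TGF-beta family, and follistatins are secreted proteins that bind activins. The 8 genes described here encode the inhibin alpha subunit (Inha), the inhibin beta A and beta B subunits (Inhba and Inhbb), follistatin (Fst), follistatin-like 3 (Fstl3) and the ligands TGF-beta 1, 2 and 3 (Tgfb1, Tgfb2 and Tgfb3). They were chosen by name, and their probes were found through the RefSeq accession that the scanner files give for each probe. This found 9 probes for the 8 genes, among 55681 probes and 20667 genes with a symbol on the array. Tgfb2 had 2 probes, and the other 7 genes had 1 probe each. By the RefSeq annotation, Inha, Inhbb and Tgfb2 lie on chromosome 1, Inhba and Fst on chromosome 13, Tgfb1 on chromosome 7, Fstl3 on chromosome 10 and Tgfb3 on chromosome 12. The transcripts were measured in J1 mouse embryonic stem cells, an established line from the inner cell mass of strain 129S4/SvJae. Cells were kept for 24 h with 3 µM SB431542 (3 arrays) or with its solvent DMSO (3 arrays). Both groups were grown on gelatin in serum replacement medium with the cytokine LIF at 1000 U/ml, and both are 1 cell line. The labels do not say whether the replicates came from separate cultures. The p-values therefore reflect the spread of these 6 samples alone, and part or all of it may be technical.

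A dimer of beta subunits is an activin, while a dimer of the alpha subunit with a beta subunit is an inhibin, which opposes activin. Activins and TGF-betas signal through type I receptor kinases (ALK4 for activins, ALK5 for TGF-betas) that phosphorylate SMAD2 and SMAD3, and SB431542 inhibits the kinases ALK4, ALK5 and ALK7. Follistatin and follistatin-like 3 bind activins and keep them from their receptors, and TGF-betas are secreted in a latent complex that must be opened before they can bind. The comparison asks how the transcripts of these ligands and antagonists differ in cells whose receptors for activin, Nodal and TGF-beta were inhibited.

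The RefSeq promoter sequences of 6 of the 8 genes were available, on build GRCm38.p6. Those of the measured genes Inha, Inhbb, Fstl3, Tgfb1 and Tgfb2 are shown, because 4 of these genes moved together and Tgfb1 did not pass the test. Each covers the 250 bases before an annotated transcript start, on the strand of the gene, and capitals mark the letters CAGAC or, on the other strand, GTCTG, a short sequence that SMAD3 and SMAD4 can bind. The Inha sequence is chr1:75507359-75507608 on the plus strand, the Inhbb sequence chr1:119422249-119422498 on the minus strand, the Fstl3 sequence chr10:79777024-79777273 on the plus strand, the Tgfb1 sequence chr7:25686752-25687001 on the plus strand and the Tgfb2 sequence chr1:186705990-186706239 on the minus strand. The Inha and Tgfb2 windows lie inside the span of a longer transcript of the same gene.
Inha: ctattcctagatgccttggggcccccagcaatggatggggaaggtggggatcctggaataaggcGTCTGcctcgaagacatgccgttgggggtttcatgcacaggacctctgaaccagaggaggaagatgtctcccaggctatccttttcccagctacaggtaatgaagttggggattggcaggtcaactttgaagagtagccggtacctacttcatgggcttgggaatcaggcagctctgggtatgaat
Inhbb: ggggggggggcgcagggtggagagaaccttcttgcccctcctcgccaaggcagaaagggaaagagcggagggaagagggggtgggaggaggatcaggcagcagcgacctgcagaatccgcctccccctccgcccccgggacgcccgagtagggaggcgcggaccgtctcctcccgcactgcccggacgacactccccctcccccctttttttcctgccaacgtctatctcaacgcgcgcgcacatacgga
Fstl3: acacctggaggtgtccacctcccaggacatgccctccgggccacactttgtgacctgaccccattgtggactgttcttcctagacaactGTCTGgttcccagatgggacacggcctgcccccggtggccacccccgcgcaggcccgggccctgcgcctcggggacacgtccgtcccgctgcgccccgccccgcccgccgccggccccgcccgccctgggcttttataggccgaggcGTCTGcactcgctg
Tgfb1: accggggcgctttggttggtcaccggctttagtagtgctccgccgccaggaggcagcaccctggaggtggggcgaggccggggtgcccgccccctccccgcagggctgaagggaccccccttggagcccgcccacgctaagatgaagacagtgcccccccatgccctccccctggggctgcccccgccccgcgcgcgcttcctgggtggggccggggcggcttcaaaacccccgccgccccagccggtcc
Tgfb2: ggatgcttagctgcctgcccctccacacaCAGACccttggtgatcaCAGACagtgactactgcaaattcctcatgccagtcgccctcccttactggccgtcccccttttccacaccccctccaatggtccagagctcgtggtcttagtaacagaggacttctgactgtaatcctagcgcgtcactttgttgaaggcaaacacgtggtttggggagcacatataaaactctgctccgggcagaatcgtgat

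CAGAC or GTCTG occurred at 1 place in the Inha window, at 2 places in each of the Fstl3 and Tgfb2 windows, and at 0 places in the Inhbb and Tgfb1 windows. Of all 32851 promoter windows of this length, 42.2% held at least 1 such match. The letters GGCGC or GCGCC, a GC-rich sequence that SMADs also bind, occurred at 2 places in the Inhbb window, at 2 in the Fstl3 window and at 1 in the Tgfb1 window, and 32.0% of all windows held it. The letters TGTGNATT, on either strand, are the core of the site of the SMAD partner FOXH1. They occurred in 0 of the 6 windows and in 3.18% of all windows. No match of 1 motif overlapped a match of another in these windows. A match describes the sequence and shows no binding.

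The response to the inhibitor was checked first on 5 feedback genes of Nodal and TGF-beta signalling, of which 5 passed the test and were lower with SB431542. Smad7, an inhibitory Smad, had a log2 change of -4.59 ± 0.05, Lefty1, a Nodal antagonist, of -9.43 ± 0.20, Lefty2 of -4.85 ± 0.10 and Skil, a repressor of Smads, of -1.34 ± 0.07 (SE). These and all later changes are SB431542 minus DMSO with the standard error of limma, 3 arrays per group. The Lefty1 probe passed the background flag on 2 SB431542 arrays and on all DMSO arrays. Adjusted p-values are limma's with Benjamini-Hochberg adjustment over 25899 features, and "rose" and "fell" are used below 0.05. Levels are the log2 of the processed spot signal minus that of the 75th percentile of the same array, so that 0 means a probe as bright as that percentile. Levels of different probes are not compared as amounts of transcript. They serve only to name the brighter or brightest probe and to sum markers, where bright probes weigh most.

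Of the 8 genes, 7 passed the filter on dim probes and were tested. Of these, 5 fell, namely Inha, Inhbb, Fst, Fstl3 and Tgfb2, and 0 rose in limma's test. At an unadjusted limma p under 0.05 there were the same 5, all lower. No share of all features at that unadjusted threshold is given, here or for the lists below. At an adjusted p under 0.05, 7.38% of all 25899 features were called lower, 5.19% higher and 12.6% in either direction. With every probe fitted on its own, 7 probes of the 8 genes were tested and 5 fell, against 6.49% of 36184 probes called lower and 10.8% called in either direction. In that fit 3, 1 and 2 probes passed without DMSO replicates 1, 2 and 3, each left out alone, and 2 with the replicate number as a block. The share of all probes called in each of these settings is not given, so these counts stand without that comparison. All SB431542 arrays lay below all DMSO arrays for the same 5 genes, as they did for 17.3% of all features. Without DMSO replicate 2, 3 of the genes passed while 5.66% of all features were called, and 4 passed without DMSO replicate 1 (6.26%) or DMSO replicate 3 (6.01%). Without SB431542 replicate 1, 2 or 3, 5 genes passed each time, with 9.04%, 8.39% and 11.2% of all features called. At an adjusted p under 0.01, 2 genes passed and 4.72% of all features were called, and with the replicate number as a block these were 3 genes and 6.05%. The median log2 change of the 7 tested genes was -0.52, against 0.02 over all features. The 5 transcripts were at 54.7% to 75.3% of their DMSO level. In bulk RNA, fewer cells that express a gene and less RNA per cell cannot be told apart.

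Inha, which encodes the alpha subunit of the inhibins, showed the lowest log2 change of the 7. Its level was -3.08, -3.45 and -3.44 on the SB431542 arrays, against -2.45, -2.33 and -2.58 on the DMSO arrays. The highest SB431542 array lay 0.50 below the lowest DMSO array, and SB431542 replicate 1 was the highest of its group. The log2 change was -0.87 ± 0.12 (95% interval -1.17 to -0.57, limma adjusted p = 0.00930). This left 54.7% of the DMSO level, and 1.97% of all features had a lower change. With the median signal, normexp and quantile normalization, the log2 change was -0.48 (adjusted p = 0.00564). Processed signals were 41.4 to 60.4 units with SB431542 and 89.5 to 105.8 units with DMSO, and the probe was well above background on all 6 arrays.

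Inhbb encodes the beta B subunit, whose dimer is activin B. Its level was 1.93, 2.03 and 2.05 with SB431542, against 2.41, 2.35 and 2.47 with DMSO, so the groups did not overlap and the spread within each was small. The probe gave 1845 to 2338 units with SB431542 and 2721 to 2973 units with DMSO. Inhbb fell by 0.41 on the log2 scale (SE 0.06, 95% interval -0.56 to -0.26, limma adjusted p = 0.0114), to 75.3% of its DMSO level. Without DMSO replicate 1 the adjusted p was 0.0512, and without DMSO replicate 3 it was 0.0539, with log2 changes of -0.41 and -0.38.

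Inhba encodes the beta A subunit, whose dimer is activin A. Its probe was not well above background on any of the 6 arrays. Processed signals were 1.82 to 2.35 units with SB431542 and 1.89 to 3.33 units with DMSO, and the groups overlapped. With neither group well above background, no fold change is given. A low signal of 1 probe does not show that the transcript was absent.

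**Figure D1:**
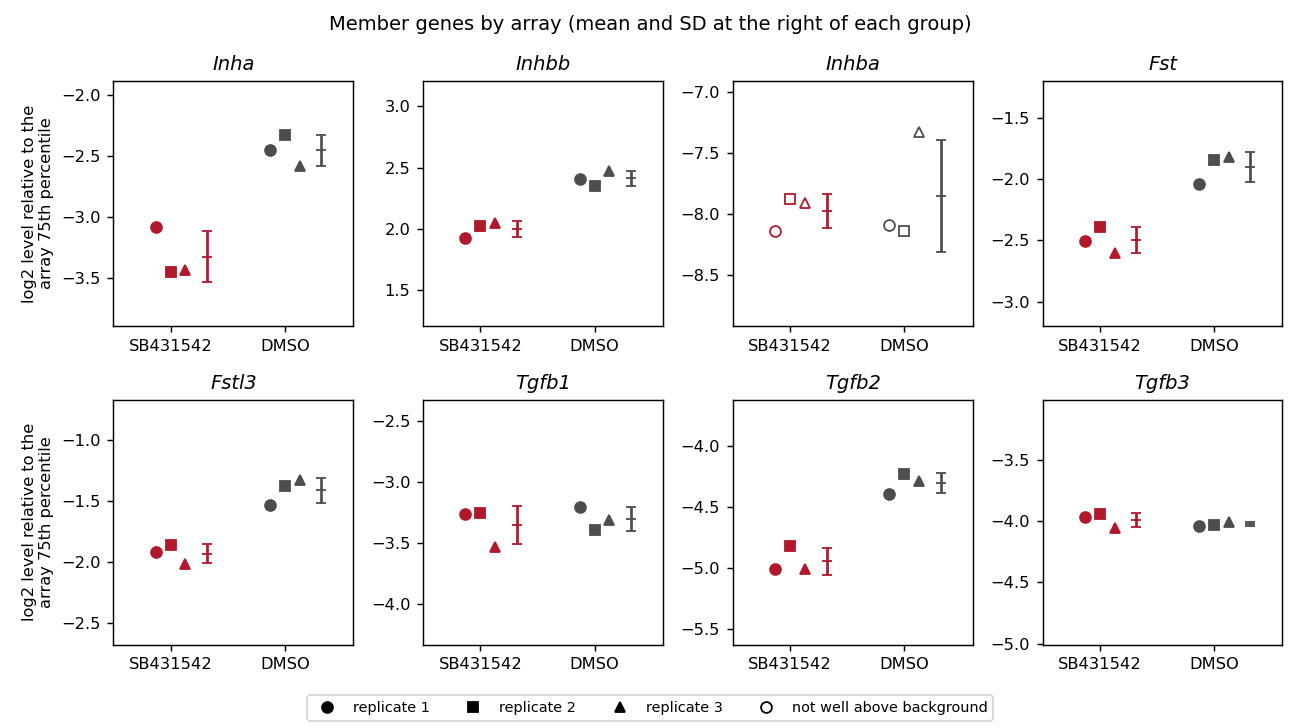
Log2 level relative to the 75th percentile of the array (vertical axis, 2 log2 units in every panel) for the 8 genes on each of the 3 SB431542 (red) and 3 DMSO (grey) arrays, with mean and SD at the right of each group. Open symbols were not well above background. The SB431542 arrays of Inha, Inhbb, Fst, Fstl3 and Tgfb2 lie below all DMSO arrays, while those of Tgfb1, Tgfb3 and Inhba overlap with them; for Tgfb2 the brighter of 2 probes is drawn.

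Both follistatin genes fell. Fst, which encodes the main activin-binding antagonist, had levels of -2.50, -2.39 and -2.60 with SB431542, against -2.04, -1.84 and -1.82 with DMSO. DMSO replicate 1 was the lowest of its group and still lay above each SB431542 array. The log2 change was -0.60 ± 0.09 (95% interval -0.81 to -0.38, limma adjusted p = 0.0108), which is 66.2% of the DMSO level. Without DMSO replicate 2 the adjusted p was 0.0535 and the log2 change -0.57.

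Fstl3 encodes a related protein that binds activins and myostatin. Its levels were -1.91, -1.86 and -2.01 with SB431542, against -1.53, -1.38 and -1.33 with DMSO, again with DMSO replicate 1 the lowest of its group and no overlap. Fstl3 fell to 70.0% of its DMSO level, a log2 change of -0.52 ± 0.08 (95% interval -0.70 to -0.33, limma adjusted p = 0.0106). Without DMSO replicate 2 the adjusted p was 0.0539 and the log2 change -0.50, and with the median signal, normexp and quantile normalization the log2 change was -0.33 (adjusted p = 0.00656). Signals of both follistatin probes were well above background on all 6 arrays, with 86.4 to 93.1 units for Fst and 124.8 to 139.7 units for Fstl3 under SB431542, and 131.1 to 151.6 units for Fst and 186.9 to 212.5 units for Fstl3 under DMSO.

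Of the TGF-beta ligands, Tgfb2 fell while Tgfb1 and Tgfb3 did not pass the test. The brighter Tgfb2 probe had levels of -5.01, -4.82 and -5.01 with SB431542, against -4.39, -4.23 and -4.29 with DMSO, and the groups did not overlap. Its log2 change was -0.64 ± 0.08 (95% interval -0.84 to -0.45, limma adjusted p = 0.00601), or 64.1% of the DMSO level. The probe was dim although well above background on every array, with 15.9 to 17.5 units under SB431542 and 25.7 to 28.4 units under DMSO. With another signal, background correction and normalization together (median signal, normexp with an offset, quantile), the log2 change was -0.12 with an adjusted p of 0.155.

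The other Tgfb2 probe was well above background on 1 of the 6 arrays, DMSO replicate 3, and was not tested. Its levels were -7.72, -7.02 and -7.45 with SB431542, against -6.70, -6.20 and -5.39 with DMSO. The SB431542 arrays were again the lower ones, at a brightness that allows no bound on a fold change.

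Tgfb1 and Tgfb3 were each printed as 10 spots per array, so that their value on an array is the log2 of the mean of 9 or 10 spots. Tgfb1, the most widely expressed TGF-beta, had levels of -3.27, -3.26 and -3.54 with SB431542, against -3.20, -3.40 and -3.31 with DMSO. SB431542 replicate 3, the only array on the second slide, was the lowest, and the other arrays of both groups overlapped. The log2 change was -0.05 ± 0.10 with a 95% interval of -0.29 to 0.19 (limma adjusted p = 0.775), an interval of 81.7% to 114.2% of the DMSO level. Without SB431542 replicate 3 the log2 change was 0.04 and the adjusted p 0.760.

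Tgfb3, the ligand known for its part in palate closure, had levels of -3.96, -3.95 and -4.05 with SB431542, against -4.04, -4.03 and -4.01 with DMSO. The DMSO arrays lay within the range of the SB431542 arrays. The log2 change was 0.04 ± 0.05 with a 95% interval of -0.09 to 0.17 (limma adjusted p = 0.675), so the interval ran from 93.8% to 112.5% of the DMSO level. Both intervals lie above the 95% interval of Tgfb2, although a difference between the 3 genes was not tested.

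The repeat spots show the precision within an array. Across arrays the SD between Tgfb1 spots was 0.086 to 0.165 on the log2 scale, and that between Tgfb3 spots 0.088 to 0.334. Every spot kept was well above background for both probes. The means of the arrays had an SD of 0.16 with SB431542 and 0.10 with DMSO for Tgfb1 (n = 3 each), and of 0.06 with SB431542 and 0.02 with DMSO for Tgfb3. The other 5 tested genes had 1 spot per array, and for them no such check exists.

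**Figure D2:**
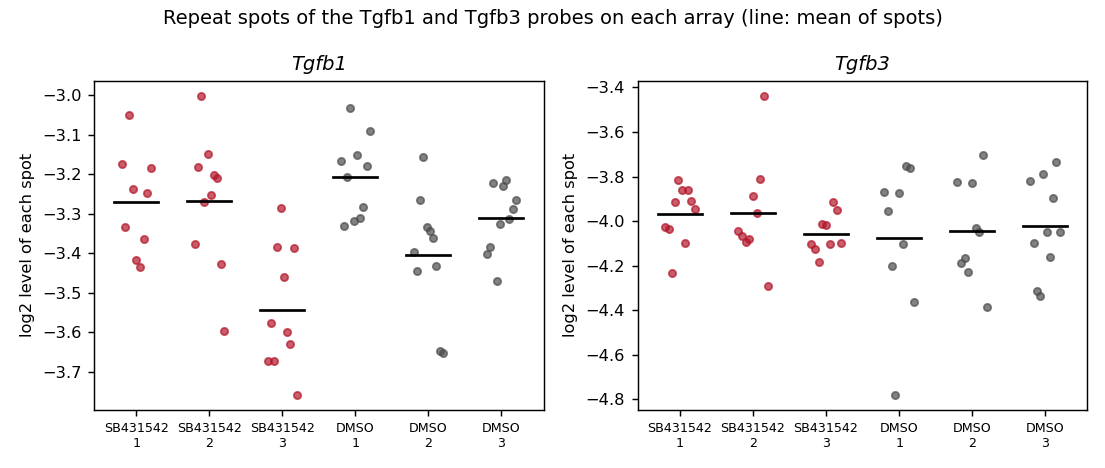
Log2 level of each kept spot (vertical axis, relative to the 75th percentile of the array) of the Tgfb1 and Tgfb3 probes on the 3 SB431542 (red) and 3 DMSO (grey) arrays, with a line at the mean log2 value of the 9 or 10 spots. Tgfb1 spots of SB431542 replicate 3 are centred lowest at -3.54, and the Tgfb3 means lie between -4.07 and -3.96.

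SB431542 replicate 3 was on a slide and in a scan of its own, apart from the other 5 arrays, which shared both. On those 5 arrays alone, the 5 genes kept their direction and passed the test. Their log2 changes there were -0.81 for Inha, -0.43 for Inhbb, -0.54 for Fst, -0.47 for Fstl3 and -0.61 for Tgfb2, with limma adjusted p-values from 0.0196 to 0.0289. The slide of replicate 3 holds 1 group only and gives no value of its own. Over all features, arrays correlated at 0.995 to 0.997 within SB431542, at 0.997 to 0.998 within DMSO and at 0.991 to 0.994 between the groups, which is across features that are not independent replicates.

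**Figure D3:**
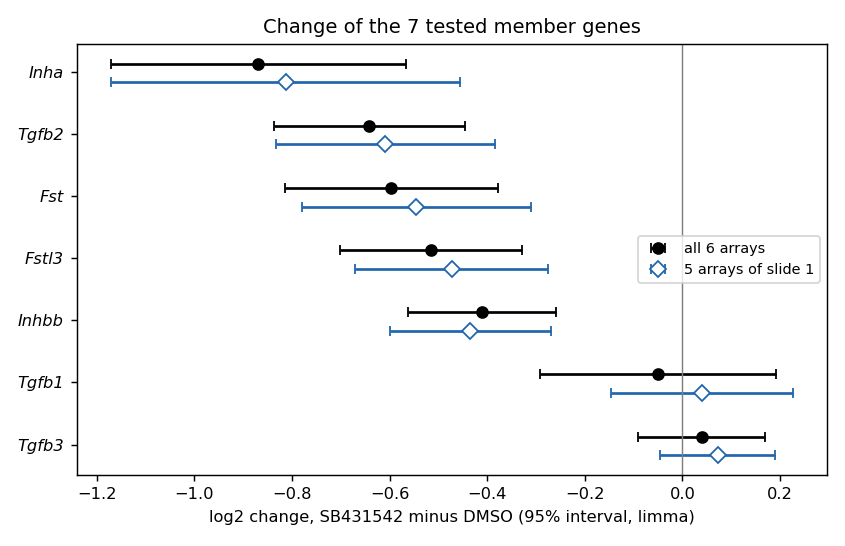
Log2 change with SB431542 minus DMSO (horizontal axis, with the 95% interval of limma) of the 7 tested genes, from all 6 arrays (black circles) and from the 5 arrays of slide 1 (open diamonds). The intervals of Inha, Tgfb2, Fst, Fstl3 and Inhbb lie below 0 in both fits, and those of Tgfb1 and Tgfb3 include 0 in both.

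The receptors, processing enzymes and storage proteins that these ligands depend on were described from lists chosen with earlier results of these data known. Of 11 receptor and co-receptor genes, 9 were tested and 0 passed limma's test in either direction, with 0 at an unadjusted p under 0.05, and their median log2 change was 0.05. The share of all features called in either direction was 12.6%, against which 0 of 9 says little. The smallest adjusted p-values were those of Acvr1, a type I receptor of activin and BMPs (-0.12 ± 0.05, adjusted p = 0.183), the TGF-beta co-receptor gene Tgfbr3 (0.16 ± 0.07, 0.187), the co-receptor gene Eng (-0.10 ± 0.06, 0.355) and Tgfbr3l (0.13 ± 0.10, 0.425). Named after its values were seen, the type II receptor gene Tgfbr2 had 2 probes that differed. The brighter probe gave 0.21 ± 0.17, and the other gave 0.44 ± 0.10 with an adjusted p of 0.0465 over all probes. None of the 5 proprotein convertase genes, which encode enzymes that cut ligand precursors, passed limma's test, with 1 at an unadjusted p under 0.05. Of these, Furin had a log2 change of 0.15 ± 0.07 (adjusted p = 0.223) and Pcsk7 of 0.24 ± 0.07 (adjusted p = 0.0765).

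Of 23 genes of latent TGF-beta storage and activation, 21 were tested, of which 2 rose and 6 fell (median log2 change -0.19). Over all features, 5.19% were called higher and 7.38% lower, which are the shares to set beside this count and those of the other lists. Itgb3, the integrin beta 3 subunit, rose by 1.17 ± 0.06 (limma adjusted p = 0.000448) and Plat, tissue plasminogen activator, by 0.89 ± 0.10 (0.00382). The membrane metalloprotease gene Mmp14 had a log2 change of -0.81 ± 0.09 (0.00480) and Mmp9 of -0.65 ± 0.10 (0.0125). Mmp9 was dim with SB431542, where 1 of 3 arrays passed the background flag. Its adjusted p was 0.0590 without DMSO replicate 2, 0.0572 without DMSO replicate 3 and 0.193 with the median signal, normexp and quantile normalization. Dcn, the TGF-beta binding proteoglycan decorin, is named after its values were seen. It was not well above background on any SB431542 array. From the group means alone it was at least 1.86-fold lower, a bound that leaves out the spread of the arrays. Dcn lost its call without each DMSO replicate in turn (limma adjusted p from 0.0751 to 0.102) and without SB431542 replicate 1 (0.0515). The same held for Dcn with the replicate block (0.0896) and with no filter on dim probes (0.0593). Dcn passed that filter only through the DMSO arrays, where it is higher, so its place among the 6 genes that fell is no support for that count. The same holds for the fibroblast markers below, which include it. The list had 8 called genes with all arrays. It had 5 without DMSO replicate 1 and likewise without SB431542 replicate 1, 3 without DMSO replicate 2 and 4 without DMSO replicate 3. In each of these fits 2 of the called genes were higher, so only 1 was lower without DMSO replicate 2. Fbn2, named after its values were seen, did not pass with its brighter probe (-0.55 ± 0.24, limma adjusted p = 0.206). Its other probe, well above background on all arrays, had -1.24 ± 0.10 and a limma adjusted p of 0.00215 over all probes.

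Of 10 genes listed as other ligands of the activin and TGF-beta branch, 8 were tested, of which 5 fell and 1 rose, with a median log2 change of -0.33. The count of genes that fell was 4 without SB431542 replicate 3, and 3 without any 1 of the other 5 arrays. Gdf9 and Inhbe, named for this after their values were seen, had log2 changes of -0.27 ± 0.06 and -0.39 ± 0.09. Gdf9 lost its call with each array left out in turn, and Inhbe with each array except SB431542 replicate 3. Gdf15, a stress-induced ligand, had a log2 change of -1.45 ± 0.09 (limma adjusted p = 0.000700). It is placed in this branch by the list alone, and it counts in the 5 and in the median. Nodal, the ligand that patterns the early embryo, had -0.63 ± 0.06 (0.00302), while Gdf11, a ligand related to myostatin, rose by 0.87 ± 0.07 (0.00132). The brightest Gdf1 probe had -0.50 ± 0.05 (0.00367), but the other had 0.26 ± 0.23, and the mean of both gave an adjusted p of 0.555. Nodal and Gdf11 were well above background on all 6 arrays.

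Of 18 genes for other proteins with a follistatin domain and for antagonists of this family, 14 were tested. Of these, 10 did not pass the test, 3 fell and 1 rose, with a median log2 change of -0.05. Fstl1, a secreted glycoprotein, had a log2 change of -0.47 ± 0.05 (limma adjusted p = 0.00431), Agrn, the heparan sulfate proteoglycan agrin, of -0.55 ± 0.07 (0.00537) and Wfikkn1, which binds myostatin and GDF11, of -0.71 ± 0.11 (0.0108). The protease gene Htra1 rose by 0.30 ± 0.07 (0.0371). With any 1 array other than SB431542 replicate 3 left out, Htra1 had an adjusted p between 0.0869 and 0.137. Wfikkn1 had an adjusted p of 0.0508 without DMSO replicate 3, where 2 genes of this list passed.

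**Figure D4:**
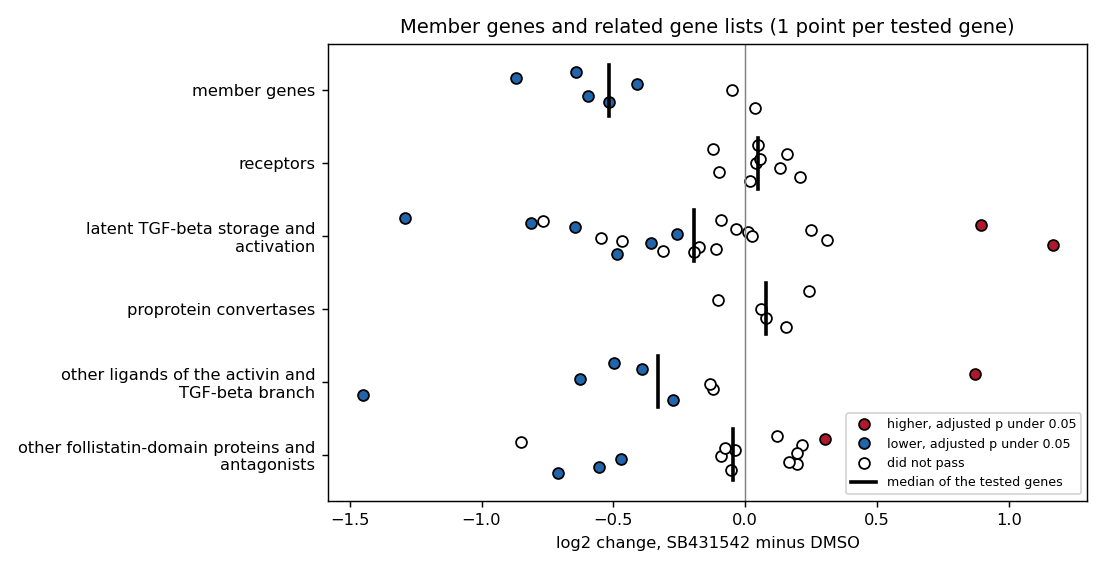
Log2 change with SB431542 minus DMSO (horizontal axis) of each tested gene among the 8 described genes and 5 related lists, with blue for genes called lower, red for genes called higher, white for genes that did not pass, and a bar at the median. The 7 tested genes have a median of -0.52, against 0.05 for receptors and -0.33 for the genes listed as other ligands of the branch. Fitted values are drawn, also for the leftmost gene of the storage list, which was not well above background on any SB431542 array.

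For each of the 5 genes that fell, the 2 genes of most similar pattern were taken from 14852 other genes with a symbol that were well above background on all 6 arrays. Similarity was the root mean square difference of the 6 log2 values after each gene was centred on its own mean. The nearest genes were Cldn7 and Nlrc5 for Inha (0.056 and 0.082), Peak1 and Rasgef1b for Inhbb (0.032 and 0.034) and Vdr and Tmem132c for Fst (0.019 and 0.037). They were Bnip3 and Adra2c for Fstl3 (0.019 and 0.036) and Gzmm and H2bc4 for Tgfb2 (0.022 and 0.039). Their log2 changes ran from -0.91 for Cldn7 to -0.40 for Rasgef1b. H2bc4 is one of many closely similar histone genes, and its probe could also detect other copies. With 6 arrays in 2 groups, such likeness is a description of these arrays.

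Markers of the labelled cell type were bright on every array, and 10 of 10 embryonic stem cell markers were tested. Of these, 2 rose (Klf2 and Tfcp2l1), 3 fell (Dppa5a, Utf1 and Tdgf1) and 5 did not pass. These and the other marker genes named below as called were picked out after their values were seen. The summed level, in multiples of the 75th percentile of the array, was 518 to 568 with SB431542 and 658 to 684 with DMSO. Dppa5a was the brightest probe in the sum, and its log2 change was -0.49 ± 0.07. Of 10 fibroblast markers, 6 were tested, of which 3 fell and 0 rose (4 at an unadjusted limma p under 0.05). Postn, Lum, Fap and Twist2 were well above background on no array, and the summed level of the 6 was 1.88 to 2.08 with SB431542 and 2.35 to 2.51 with DMSO. The sum was 15.1 to 15.3 with SB431542 and 12.9 to 14.2 with DMSO for 8 primitive endoderm markers. Of these 8, 1 rose (Pdgfra) and 7 did not pass, with a median log2 change of 0.02. Lama1, the brightest of the 8, did not pass (0.16 ± 0.06). For 4 of 6 trophoblast markers the sum was 26.8 to 27.3 with SB431542 and 11.9 to 12.6 with DMSO. Tfap2c, the brightest of these 4, rose by 1.22 ± 0.05. The other 3, Cdx2 (0.49 ± 0.42), Eomes (-0.02 ± 0.06) and Krt7 (-0.57 ± 0.19), did not pass. For 4 of 6 mesendoderm markers the sum was 1.12 to 1.21 with SB431542 and 1.12 to 1.19 with DMSO. For 4 neuroectoderm markers it was 6.40 to 7.27 with SB431542 and 6.89 to 7.0 with DMSO. Of these 4, Nes (-0.60 ± 0.06) and Sox1 (-0.30 ± 0.05) fell, while the brightest, Tubb3, did not pass (0.22 ± 0.08). The other Sox1 probe, well above background on all arrays, had 0.07 ± 0.10 and a limma adjusted p of 0.711 over all probes. The part of these marker shifts in the falls of the 5 genes was not tested.

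**Figure D5:**
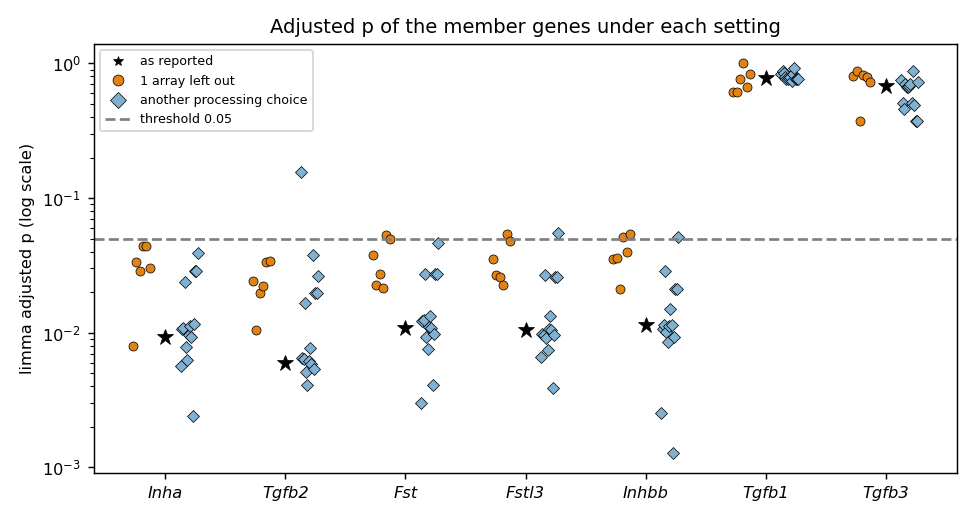
Limma adjusted p (vertical axis, log scale) of the 7 tested genes as reported (stars), with 1 array left out (circles) and under another processing choice (diamonds), with the threshold of 0.05 dashed. Each circle and diamond of Inha lies below the threshold, while 1 to 3 settings of Tgfb2, Fst, Fstl3 and Inhbb lie above it and those of Tgfb1 and Tgfb3 all lie above it.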

How the data were processed

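RNA was hybridised to 6 one-colour (Cy3) Agilent mouse arrays. Per the file headers, spot intensity was extracted, background-corrected and deposited as processed signal, with flags scored 0 or 1 for spots well above background, saturation and outliers; the submitters' processing notes name Agilent Feature Extraction 10.7. A deposited table of log2 values, with a normalization that the sources used here do not give, served as an alternative only. There were 62976 spots per array, 59305 of them non-control. None was saturated (0 spots) and 61.4% to 63.6% were well above background, which with the number of arrays limits the precision.

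From the processed signal, log2 values minus the 75th percentile of the array (453 to 565 units) were computed after outlier spots were removed and spots of a probe averaged. A probe had to be well above background on 3 of 6 arrays, and the brightest probe by its mean over all arrays stood for a gene. Of 55681 probes, 27235 were named by accession and 28433 had no symbol. Limma 3.58.1 (lmFit, eBayes, two-sided) in R 4.3.3 compared the groups, with Benjamini-Hochberg adjustment over 25899 features. The method was tested on simulated data with 50 changed features of each size. It recovered 44% of log2 changes of 0.5, 78% of changes of 1 and 96% of changes of 2, with 9 false calls. A far smaller share of features was changed there than the 12.6% called in the data. As the adjustment depends on that share, these rates need not hold for the reported test. The genes, lists and tests were chosen with earlier results of these data known. Named list genes were up to 4 per list with the smallest adjusted p. The headers hold no mean signal, so the normexp alternative used the median signal (offset 50), followed by quantile normalization. Other filters, normalizations, probe rules, slide and replicate blocks, and left-out arrays were tried.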

Additional observations from a re-analysis of the deposited data

How the results depend on the processing

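Each tested gene was refitted under 20 alternatives, which are not all separate checks. Slide as a block, scan as a block and SB431542 replicate 3 left out gave the same values. Other filters and probe rules left the log2 changes of these genes as they were and altered only the errors and adjusted p-values. Inha was lower with an adjusted p of at most 0.0438 in all 20, Tgfb2 and Fst in 19 each, Fstl3 in 18 and Inhbb in 17 passed, and Tgfb3 passed in none, with a positive change in all 20. The number of changed genes, 5 as reported, was 3 to 5 with 1 array left out and 2 at an adjusted p under 0.01. Over all probes that passed the filter it was 1 to 5 with 1 array left out and 1 at that threshold, against 5. No share of all probes called is given for these settings or for the replicate block below. Of 62 related genes, 23 passed as reported, 15 to 22 with 1 array left out and 14 at the stricter threshold. The 62 include the 5 feedback genes of the response check, which passed in each of these settings. The 23 also include Dcn. Of all features, 12.6% were called as reported and 4.72% at the stricter threshold. With 1 array left out, log2 changes ranged from -0.99 to -0.81 for Inha, -0.44 to -0.37 for Inhbb, -0.67 to -0.54 for Fst, -0.57 to -0.47 for Fstl3, -0.71 to -0.60 for Tgfb2, -0.098 to 0.041 for Tgfb1 and 0.018 to 0.072 for Tgfb3. With the median signal, normexp and quantile normalization, changed together, the log2 change of Tgfb2 was -0.12 (adjusted p = 0.155), that of Inha -0.48 and that of Fstl3 -0.33, the last 2 still past the threshold; the cause was not tested. Tgfb1 turned to 0.0146 with robust fitting and array weights and to 0.041 with slide or scan as a block, which takes SB431542 replicate 3 out of the comparison. Samples with the same replicate number did not deviate together (correlations of -0.058 to 0.072, against -0.078 to 0.075 for other pairs). With the replicate block, 3 of the genes, 2 of the probes and 15 of the related genes passed; Inhbb had -0.41 (adjusted p = 0.0514) and Fstl3 -0.52 (adjusted p = 0.0547). Over all features, 3257 were called as reported and 2098 without a filter on dim probes. Without DMSO replicates 1, 2 and 3, 1620, 1467 and 1557 were called, and with the replicate block 1567. The cause of these lower counts was not tested. Inhba and the dimmer Tgfb2 probe lay too close to background for a change to be measured.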
